A study of Glycine max with 3 samples.

Results

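The suspensor of the globular soybean embryo was set against the seed coat parenchyma of the early maturation seed, gene model by gene model. Compared were all gene models with 50 or more mapped reads in at least 1 of these libraries, which were 23575 of the 66210 gene models listed. The suspensor library came from globular-stage embryos of soybean (Glycine max), cultivar Asgrow A3237, in seeds of pods 0.5 to 1.2 cm long, and the seed coat parenchyma library from seeds 6.0 to 7.0 mm long of the same cultivar. Both tissues were cut from paraffin sections by laser capture microdissection, from sections of 6 µm for the suspensor and 8 µm for the seed coat, on different instruments. The series also holds a library of the embryo proper at the globular stage, which had no part in choosing the gene models and is given beside the others. The tissue of the suspensor library is labelled as suspensor region. No treatment or altered genotype is named for any library.

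The suspensor is the short-lived stalk between the embryo proper and the maternal tissue. It anchors the embryo, passes nutrients to it, and in some legumes is known as a source of plant hormones early in embryo growth. The seed coat parenchyma is a maternal layer. Sugars and amino acids that arrive through the seed coat's phloem move through such cells before they are released to the filial tissues. One tissue is thus embryonic and the other maternal, and they were also captured at different stages.

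Each tissue was represented by 1 library, so no value has a replicate and no test of the difference between tissues was possible. Tissue, stage, section thickness and instrument change together and cannot be told apart, nor can fewer cells expressing a gene be told apart from less RNA per cell. The suspensor library held 8365831 reads, the seed coat parenchyma library 11894273 and the embryo proper library 11603055. Levels are given as CPM, counts for each 1000000 reads after scaling by the trimmed mean of M-values (TMM), with a factor of 0.832 for the suspensor, 1.21 for the seed coat parenchyma and 0.994 for the embryo proper. Since the depth and the factors differ, the minimum of 50 reads stood for 7.19 CPM in suspensor and 3.48 CPM in seed coat parenchyma. The tables pair no gene model with a name or a product, and none of them matched the reference table used here. The tissue labels could therefore not be checked against marker genes, and no function is given for any gene model.

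Differences of 4-fold or more were common, and more of them lay on the seed coat side. Levels were at least 4-fold higher in suspensor for 3610 gene models (15.3% of those compared) and at least 4-fold higher in seed coat parenchyma for 6943 (29.5%). These groups are called suspensor-high and seed coat-high below. Another 7856 gene models (33.3%) differed by less than 2-fold. The difference was larger than counting error at the 4-fold limit, by an exact 95% Clopper-Pearson interval on the reads of both libraries, for 3014 suspensor-high and 5658 seed coat-high gene models. That interval covers counting error only, since amplified reads are not independent molecules.

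The excess on the seed coat side lay among gene models that met the read minimum in the seed coat parenchyma alone. The minimum was met in the suspensor alone by 2370 gene models, in the seed coat parenchyma alone by 9028 and in both by 12177. Of the 2370, 2176 were suspensor-high, and of the 9028, 6463 were seed coat-high. A gene model that enters through 1 library alone has fewer reads in the other by construction, so these counts describe the selection as well as the tissues. Among those that were seed coat-high, 1999 lay between 3.48 and 7.19 CPM, a range that the minimum lets in for the seed coat parenchyma but not for the suspensor. With a common minimum of 10 CPM in at least 1 library, chosen after seeing the data, the numbers were 3260 suspensor-high and 4046 seed coat-high.

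**Figure D1:**
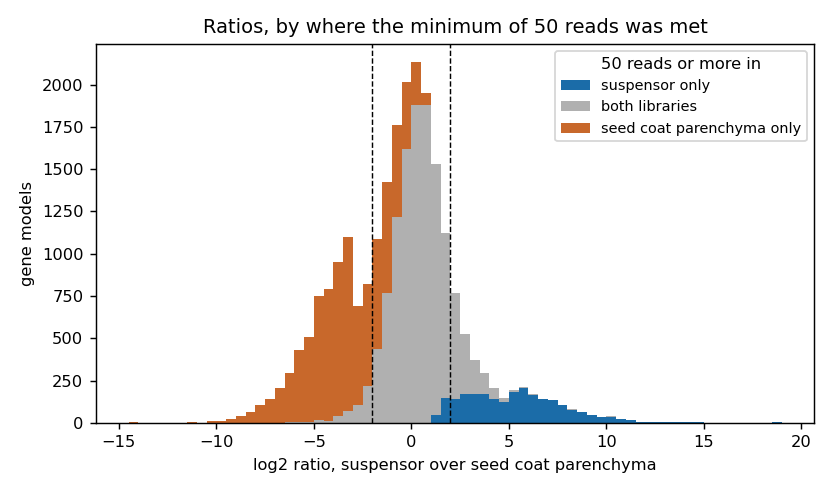
Histogram of the log2 ratio of suspensor over seed coat parenchyma for the 23575 gene models (horizontal axis, bins of 0.5). Bars are stacked by the library in which 50 reads were reached, and dashed lines mark 4-fold. A count of 0 was set at 3 reads, so the ratio of such a gene model follows its count in the other library. The 12177 gene models with 50 reads in both libraries lie around a log2 ratio of 0.42, and the 9028 that reached 50 reads in the seed coat parenchyma alone make up most of the left side.

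Among the 12177 gene models with at least 50 reads in both libraries the balance was the other way. In this group 1434 were suspensor-high (11.8%) and 480 were seed coat-high (3.94%), and 6596 (54.2%) differed by under 2-fold. The whole group leaned to the suspensor under TMM scaling, with a median log2 ratio of 0.42, against a median of -0.35 over all 23575. The minimum acts unequally here too, since 50 reads stood for 7.19 CPM in suspensor and 3.48 CPM in seed coat parenchyma. A seed coat-high gene model therefore needed a higher level to enter this group than a suspensor-high one. The direction of the balance also changed with some scalings. It stayed with DESeq2 size factors (1542 suspensor-high and 439 seed coat-high). It also stayed with totals without the 50 most abundant gene models of each of the 3 libraries (976 and 741). With unscaled library totals the numbers were 773 suspensor-high and 974 seed coat-high, at a median log2 ratio of -0.12. With the libraries scaled so that the median ratio of the group was 1, 884 were suspensor-high and 831 seed coat-high. Which side holds more of the well-measured differences is therefore not fixed by these libraries.

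The gene models at the read minimum show how the selection acts at its edge. The highest count was exactly 50 reads, just inside, for 95 gene models, of which 20 reached it in the suspensor alone and 75 in the seed coat parenchyma alone. It was 49 reads, just outside, for 107 gene models, of which 32 reached it in suspensor and 75 in seed coat parenchyma. Just inside the limit 11 were suspensor-high and 39 seed coat-high, and just outside it 21 and 49 would have been.

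The size of the differences was spread differently on the 2 sides. Between 8-fold and 64-fold, 1424 gene models were higher in suspensor and 4524 in seed coat parenchyma. At 256-fold or more the order was reversed with TMM scaling, at 334 for suspensor and 162 for seed coat parenchyma, but not with unscaled totals, at 249 and 277. A gene model with 0 reads was set at a floor of 3 reads, so its fold is a lower bound. Counts above 0 but below 3 were left as they were. At equal reads in the higher library, such a gene model therefore got a larger fold than one with 0 reads. This enters the counts at 256-fold or more on both sides, and its part in them was not tested. With 50 reads in seed coat parenchyma and 0 in suspensor that bound is 8.06-fold, and with 50 reads in suspensor and 0 in seed coat parenchyma it is 34.5-fold, so the sizes on the 2 sides are not measured alike at low counts.

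**Figure D2:**
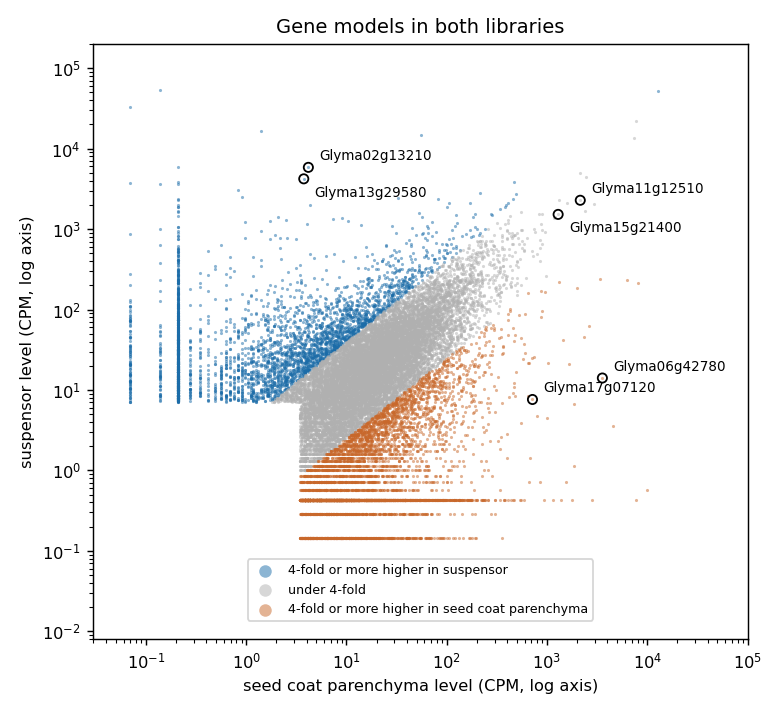
Level of each of the 23575 gene models in suspensor (vertical, CPM, log axis) against the seed coat parenchyma (horizontal, CPM, log axis), coloured by class, with a count of 0 drawn at 3 reads and the 6 gene models described individually circled. The cloud is cut at 7.19 CPM in suspensor and 3.48 CPM in seed coat parenchyma by the minimum of 50 reads; the lines of points at its left and lower edges are gene models with 0 to a few reads in 1 library.

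The individual gene models below were picked by ratio or by level, so their values are a description. Of those with 50 reads or more in both libraries, so that both levels rest on many reads, the pair with the largest ratio is given for each side. Glyma02g13210, on chromosome 2, had 40732 reads in suspensor, 402539 in embryo proper and 60 in seed coat parenchyma. This is 5854 CPM in suspensor, 34902 CPM in embryo proper and 4.17 CPM in seed coat parenchyma, and its ratio of suspensor to seed coat was 1404 (counting interval 1090 to 1840). It was thus found in the libraries of both embryo regions, at its highest in embryo proper, and nearly absent from the seed coat library. Glyma13g29580, on chromosome 13, had 29313 reads in suspensor, 1761 in embryo proper and 54 in seed coat parenchyma. Its levels were 4213 CPM in suspensor, 153 CPM in embryo proper and 3.75 CPM in seed coat parenchyma, a ratio of suspensor to seed coat of 1122 (860 to 1495). Unlike Glyma02g13210, it was highest in the suspensor library.

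On the seed coat side, Glyma06g42780, on chromosome 6, had 98 reads in suspensor, 51277 in seed coat parenchyma and 1 in embryo proper. It stood at 14.1 CPM in suspensor and 3564 CPM in seed coat parenchyma and was 253-fold higher in seed coat parenchyma (counting interval 208 to 312). Glyma17g07120, on chromosome 17, had 53 reads in suspensor, 10303 in seed coat parenchyma and 3375 in embryo proper. Its levels were 7.62 CPM in suspensor, 716 CPM in seed coat parenchyma and 293 CPM in embryo proper, which put it 94.0-fold higher in seed coat parenchyma than in suspensor (71.8 to 126). The first of these was almost confined to the seed coat library among the libraries at hand, whereas the second was low in the suspensor alone.

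Beyond these pairs, the 50 gene models with the largest ratios on each side, among those with 50 reads in both libraries, showed the reach of well-measured differences. On the suspensor side they ranged from 25.6-fold to 1404-fold, with a median of 40.3-fold, and from 93.6 to 14896 CPM in suspensor. Their median level was 290 CPM in suspensor, 4.87 CPM in seed coat parenchyma and 38.5 CPM in embryo proper. On the seed coat side they ranged from 14.5-fold to 253-fold, with a median of 26.1-fold. Their median level was 11.1 CPM in suspensor, 305 CPM in seed coat parenchyma and 5.16 CPM in embryo proper. The minimum of 50 reads stood for 7.19 CPM in suspensor and 3.48 CPM in seed coat parenchyma. At the same level in the higher library, the largest possible ratio was therefore smaller on the seed coat side. The folds of the suspensor side and the seed coat side are thus not measured alike. In embryo proper, 44 of the 50 on the suspensor side and 26 of the 50 on the seed coat side had 50 reads or more. The shares were 64.4% of all suspensor-high, 40.7% of all seed coat-high and 83.1% of gene models under 4-fold.

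Some abundant transcripts stood at much the same level in both tissues. The most abundant gene models with a ratio under 5 to 4 either way were Glyma11g12510, on chromosome 11, and Glyma15g21400, on chromosome 15. Glyma11g12510 had 15877 reads (2282 CPM) in suspensor, 30866 reads (2145 CPM) in seed coat parenchyma and 11253 reads (976 CPM) in embryo proper. Its ratio of suspensor to seed coat was 1.06 (counting interval 1.04 to 1.08). Glyma15g21400 had 10593 reads (1522 CPM) in suspensor, 18570 reads (1291 CPM) in seed coat parenchyma and 25346 reads (2198 CPM) in embryo proper. Its ratio was 1.18 (1.15 to 1.21). Their direction depended on scaling, since with unscaled totals the log2 ratios were -0.45 for Glyma11g12510 and -0.30 for Glyma15g21400.

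Suspensor-high gene models accounted for 46.91% of the suspensor library (95% Wilson interval 46.88 to 46.94%), 5.34% of the seed coat library and 22.4% of the embryo proper library. For seed coat-high gene models the shares were 1.28% of the suspensor library, 33.96% of the seed coat library (33.93 to 33.98%) and 6.84% of the embryo proper library. The largest part of each library fell on gene models that differed by under 4-fold, with 50.9% in suspensor, 59.2% in seed coat parenchyma and 67.3% in embryo proper. So 3610 suspensor-high gene models carried a larger part of their own library than 6943 seed coat-high gene models did of theirs. The intervals cover counting error only. The order of the shares did not hold with unscaled totals, where the shares were 35.8% for suspensor-high and 38.8% for seed coat-high gene models.

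**Figure D3:**
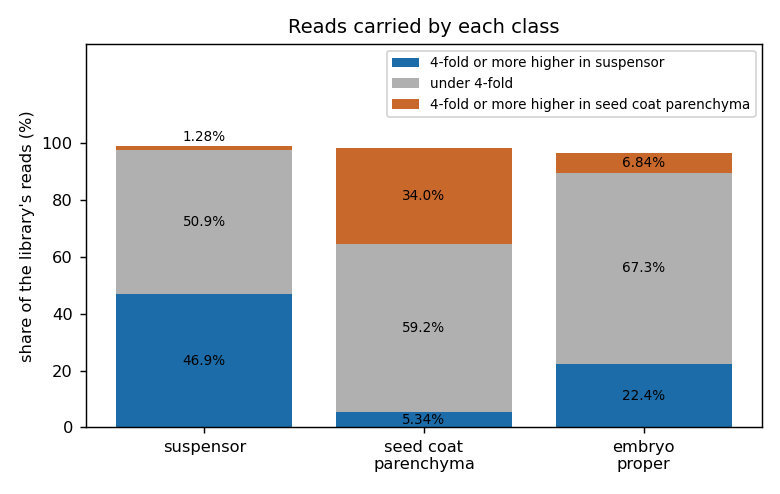
Share of each library's reads (vertical, percent) carried by suspensor-high gene models (bottom), gene models under 4-fold (middle) and seed coat-high gene models (top), in suspensor, seed coat parenchyma and embryo proper libraries; the rest of each library fell on gene models outside the comparison. The suspensor-high part is 46.9% in suspensor, 5.34% in seed coat parenchyma and 22.4% in embryo proper.

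The suspensor-high reads came from fewer gene models. The 58 most abundant suspensor-high gene models held 50% of the suspensor reads of their class, while 280 were needed for 50% of the seed coat reads of the seed coat-high class. The largest single suspensor-high gene model took 4.52% of suspensor reads, and the 10 largest took 16.1%. In seed coat parenchyma the largest seed coat-high gene model took 1.21% of reads, and the 10 largest took 6.19%. Among gene models under 4-fold the libraries were closer to each other, where the 10 largest took 4.75% in suspensor and 3.78% in seed coat parenchyma.

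Most of the strongest transcripts of the suspensor were suspensor-high. Of the 100 most abundant gene models of the suspensor library, 69 were suspensor-high, 31 differed by under 4-fold and 0 were seed coat-high. Of the 100 most abundant of the seed coat library, 2 were suspensor-high, 49 differed by under 4-fold and 49 were seed coat-high. Over all gene models compared, 15.3% were suspensor-high and 29.5% seed coat-high. Each list was picked on the level in its own library, which also enters the ratio. A tilt of each list to the class of its own library is therefore partly built in, and the size of that part was not tested. With unscaled totals the suspensor-high count in the first list was 56 and the seed coat-high count in the second was 52. The lists shared 24 gene models, which is 24% of each. Among the 1000 most abundant of each library, 403 were shared.

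The side of the difference changed with the level of expression. Taking the higher of the 2 libraries as the level, 8.03% of gene models between 5 and 10 CPM were suspensor-high and 44.0% were seed coat-high, in a range that the suspensor could enter only from 7.19 CPM upward. Between 20 and 50 CPM the shares were 16.6% suspensor-high and 21.3% seed coat-high, and between 100 and 500 CPM they were 27.1% and 16.0% in the same order. Of the 110 gene models at 1000 CPM or more, 65 were suspensor-high and 22 were seed coat-high. At 100 CPM or more the numbers were 760 suspensor-high and 413 seed coat-high. With unscaled totals, under which the levels were also taken anew, they were 480 and 661. The lead of the suspensor side at 100 CPM thus depends on the scaling. At 1000 CPM or more the suspensor side stayed the larger with unscaled totals (42 against 29).

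**Figure D4:**
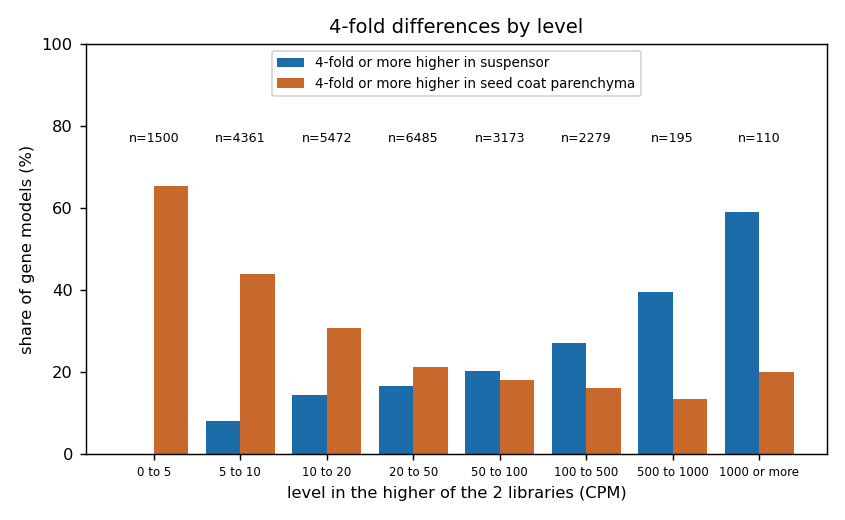
Share of gene models (vertical, percent) that were suspensor-high (left bar) and seed coat-high (right bar) at each level of the higher library (horizontal, CPM), with the number of gene models above each pair. The suspensor-high share is 8.03% at 5 to 10 CPM and 59.1% at 1000 CPM or more, and the seed coat-high bar stands for 44.0% at the first level and for 22 of 110 gene models at the last; below 5 CPM only the seed coat library could bring a gene model into the comparison.

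Many gene models of both classes had no read in the other tissue. Of the 3610 suspensor-high gene models, 778 (21.6%) were at 0 reads in seed coat parenchyma, and of the 6943 that were seed coat-high, 2810 (40.5%) were at 0 reads in suspensor. The suspensor library is the shallower one: 0 reads allow up to 0.431 CPM in suspensor and 0.209 CPM in seed coat parenchyma, at 3 reads. Thinning the seed coat library to 8365831 reads, as in the suspensor library, left 815 of 3629 suspensor-high gene models (22.5%) and 2245 of 6009 seed coat-high ones (37.4%) at 0 reads in the other tissue, with 21990 gene models then compared. A further 211 suspensor-high gene models had 1 to 3 reads in seed coat parenchyma, and 1138 seed coat-high ones had 1 to 3 reads in suspensor.

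The medians of these undetected transcripts, in the library that held them, were below those of their whole classes. The class medians were 34.2 CPM in suspensor for suspensor-high and 12.4 CPM in seed coat parenchyma for seed coat-high gene models. Gene models under 4-fold had medians of 18.5 CPM in suspensor and 17.8 CPM in seed coat parenchyma. The 778 suspensor-high gene models with 0 seed coat reads had a median of 23.4 CPM in suspensor and reached 5977 CPM, with 127 of them at 100 CPM or more, and together they took 6.60% of suspensor reads. The 2810 seed coat-high gene models with 0 suspensor reads had a median of 8.76 CPM in seed coat parenchyma and reached 7654 CPM, with 79 at 100 CPM or more, and together they took 8.39% of seed coat reads. In embryo proper, 125 of the 778 and 1329 of the 2810 had 0 reads as well, and 304 of the 778 and 406 of the 2810 had at least 50. Over the whole classes, 5.82% of suspensor-high and 23.9% of seed coat-high gene models had 0 reads there, and 64.4% and 40.7% had at least 50.

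In the embryo proper library, which played no part in the selection, the median of each class lay between those of the other libraries. Suspensor-high gene models had a median of 34.2 CPM in suspensor, 9.02 CPM in embryo proper and 2.09 CPM in seed coat parenchyma. Seed coat-high gene models had a median of 0.287 CPM in suspensor, 2.43 CPM in embryo proper and 12.4 CPM in seed coat parenchyma. For single gene models the embryo proper level lay between the other 2 for 2353 suspensor-high (65.2%) and 3569 seed coat-high ones (51.4%). A further 125 suspensor-high (3.46%) and 1329 seed coat-high ones (19.1%) were at 0 reads in embryo proper, level with 0 reads in the lower library. The embryo proper level was above both for 469 suspensor-high and 1081 seed coat-high gene models, and below both for 663 and 964 in the same order. A gene model chosen for a wide gap leaves a wide interval for a further library to fall into, so these shares are not set against those of other gene models.

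Detection in embryo proper differed between the classes. At least 50 reads were found there for 2325 suspensor-high (64.4%) and 2824 seed coat-high gene models (40.7%), and 0 reads for 210 (5.82%) and 1657 (23.9%) in the same order. Of the 13022 gene models under 4-fold, 10815 (83.1%) had at least 50 reads there and 154 (1.18%) had 0. Both 4-fold classes were thus found less often in embryo proper than the gene models under 4-fold. The minimum of 50 reads was met in both suspensor and seed coat parenchyma by 10263 of the 13022 gene models under 4-fold. It was met in both by 1434 of 3610 suspensor-high and 480 of 6943 seed coat-high gene models. Wider detection of the gene models under 4-fold is therefore partly built into the classes, and the size of that part was not tested. The classes also differed in level in their own library, with an interquartile range of 16.5 to 83.0 CPM for suspensor-high gene models in suspensor and 6.53 to 28.4 CPM for seed coat-high ones in seed coat parenchyma. The part of this difference in level in the detection was not tested.

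**Figure D5:**
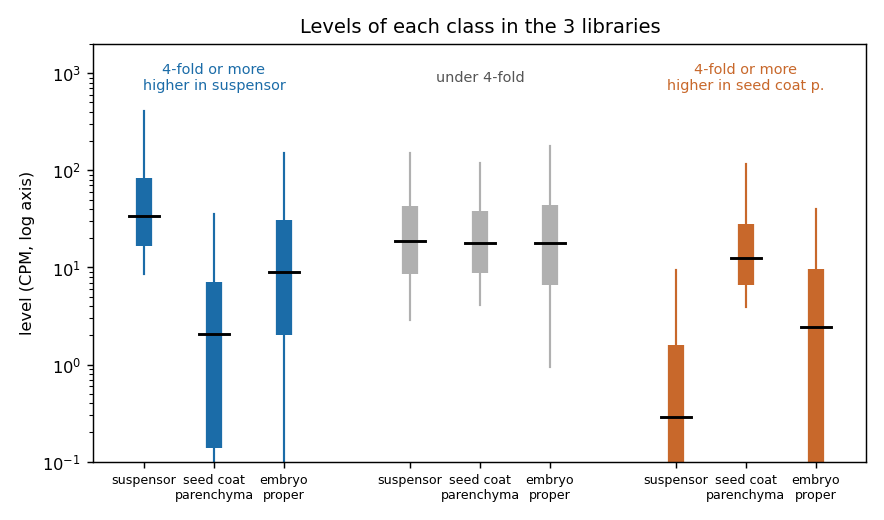
Level (vertical, CPM, log axis) of suspensor-high gene models, gene models under 4-fold and seed coat-high gene models in each library; the black bar is the median, the box the 25th to 75th percentile and the line the 5th to 95th percentile, and values under 0.1 CPM, 0 included, lie at the foot of the axis. The embryo proper median lies between the other medians in both 4-fold classes, at 9.02 CPM and 2.43 CPM.

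The differences were spread over all 20 chromosomes. The identifiers carry a chromosome number for 23508 of the gene models compared, and 67 lay on unplaced scaffolds. The suspensor-high share ranged from 13.2% of the gene models on chromosome 10 (171 of 1296, 95% Wilson interval 11.5 to 15.1%) to 19.0% on chromosome 3 (207 of 1092, 16.7 to 21.4%), beside 15.3% over all. The seed coat-high share ranged from 27.3% on chromosome 20 (280 of 1027, 24.6 to 30.1%) to 31.3% on chromosome 13 (430 of 1374, 28.9 to 33.8%), beside 29.5% over all. These extremes were picked out of 20 chromosomes, and their difference was not tested.

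By reads the chromosomes were far less even in suspensor. Gene models on chromosome 20 took 10.7% of the suspensor library and 5.60% of the seed coat library, and those on chromosome 10 took 8.74% of the suspensor and 4.65% of the seed coat library. The single largest gene model on each made up 4.28% and 4.52% of suspensor reads. Chromosome 10 thus had the lowest share of suspensor-high gene models and the second highest share of suspensor reads. Chromosome 8 held the most gene models compared, 1677, and took 7.40% of the suspensor library and 7.75% of the seed coat library.

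Neighbouring gene models were more often in the same class than the class's overall share. The number in an identifier gives the order along the chromosome. Where a suspensor-high gene model was followed by another gene model of the comparison, the next one was suspensor-high in 318 of 1539 cases (20.7%), beside 15.3% over all. For seed coat-high gene models the next was seed coat-high in 1034 of 3090 cases (33.5%), beside 29.5% over all. With the next compared gene model in place of the next listed one, the shares were 18.8% and 32.8%. Neighbours can be duplicated genes that share reads, and the part of this in the shares was not tested.

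Long runs were found on the seed coat side. There were 22 runs of 3 adjacent suspensor-high gene models and none longer, while seed coat-high gene models formed 147 runs of 3 or more, 28 of them of 4 or more. The seed coat-high class is the larger one, which by itself gives more runs. The longest run was of 6 adjacent gene models on chromosome 17. Their reads in suspensor were 0, 7, 3, 0, 1 and 0, in order along the chromosome, and in seed coat parenchyma 254, 103, 113, 1241, 607 and 401. In embryo proper they had 0, 53, 78, 0, 0 and 0 reads, so that 4 of the 6 were found in the seed coat library alone or with a single suspensor read.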

How the data were processed

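Per the file headers, the authors deposited for each library a count of mapped reads per gene model. The values are whole numbers with unequal totals and were used as raw counts. The submitters' processing notes name Bowtie as a tool. Its version, the genome build, the annotation, and how multiply mapping or stranded reads were handled were not given in the sources used here. Close paralogs and overlapping genes are therefore uncertain. Per the labels' protocols, 3 to 5 ng of RNA was amplified, followed by 15 PCR cycles and single-end reads of 76 nt.

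Counts were scaled with edgeR 4.0.16 (R 4.3.3) TMM factors from all 3 libraries. Ratios are of scaled counts, with 0 set at 3 reads and counts above 0 but below 3 left as they were. No count model was fitted, since each tissue has 1 library. Other scalings included DESeq2 1.42.0 size factors. The steps were tested on simulated data. Python 3.11.15, NumPy 2.4.6, pandas 2.3.3, SciPy 1.17.1 and matplotlib 3.10.9 were used.

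Individual gene models follow a rule: the 2 with the largest ratio per side with 50 reads in both libraries, and the 2 most abundant with a ratio under 5 to 4 either way. The selection and rules were chosen with earlier results of these data known. Of 59048 reference genes (assembly Glycine_max_v4.0), 0 matched an identifier, so 44 gene lists resting on product names were not used.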

Additional observations from a re-analysis of the deposited data

How the results depend on the processing

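No paired analysis was possible because each tissue has 1 library, and for the same reason no replicate could be left out. Numbers are given as suspensor-high and seed coat-high, beside 3610 and 6943. They were 2031 and 3185 at a minimum of 200 reads (4909 under 2-fold), 1434 and 480 at 50 reads in both libraries, and 3260 and 4046 at a minimum of 10 CPM, which was added after seeing the data. They were 6266 and 9453 at 2-fold, 2315 and 5432 at 8-fold, 1651 and 3385 at 16-fold, and 2020 and 2220 with 5 CPM added. Every other planned setting of these counts kept them within 1.5 times, and the seed coat side was the larger in each setting except 50 reads in both libraries. Of all 4-fold differences 34.2% were suspensor-high, against 25.6% with unscaled totals. The share was 28.8% with totals without the 50 most abundant gene models of each of the 3 libraries. These scalings shifted the median log2 ratio from -0.35 to -0.89 and to -0.68. For gene models with 50 reads in both libraries (1434 and 480) unscaled totals gave 773 and 974, totals without the most abundant gave 976 and 741, and a median ratio of 1 gave 884 and 831. At 100 CPM or more (760 and 413) unscaled totals gave 480 and 661, and totals without the most abundant gave 749 and 761. The gene models at this level were drawn anew under each scaling. They were 2584 with TMM, 2593 with unscaled totals and 3516 with totals without the most abundant, so the sets are not the same. Scalings of these groups were added after seeing the data. The suspensor-high share of suspensor reads was 38.1% without its 2 largest members and 35.8% with unscaled totals, and the seed coat-high share of seed coat reads 31.8% and 38.8%. Of 48 alternative ratios of the individual gene models, 17 moved beyond their counting interval. The gene list alternatives were not run.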

Other observations

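Outside the comparison, 1969 gene models had 50 or more reads in the embryo proper but fewer in both other libraries. They took 2.65% of embryo proper reads, with a median of 8.24 CPM and a highest level of 197 CPM there, and 16 of them stood at 100 CPM or more. Their median count was 4 reads in the suspensor and 16 reads in the seed coat parenchyma. In 506 of them the suspensor had 0 reads, in 390 the seed coat parenchyma had 0 reads, and in 157 both had 0. The gene models compared took 99.1% of the suspensor library, 98.5% of the seed coat library and 96.6% of that of the embryo proper. Of all 66210 gene models, 28956 had 0 reads in both the suspensor and the seed coat parenchyma, the 157 above included.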
